A study of Mus musculus with 63 samples.

Results

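KO livers, from mice built to lose HCF-1 in hepatocytes, were compared with WT livers on days 1 and 2 after the start of tamoxifen. These were the earliest days after treatment began that were sampled in both genotypes. The members were the 8 of 63 libraries that the sample titles give as male KO or male WT on day 1 or day 2, with 4 KO and 4 WT livers, 2 of each genotype on each day. KO males carried the Alb-Cre-ERT2tg transgene, a tamoxifen-activated Cre driven by the albumin promoter and so directed to hepatocytes, and their single X chromosome held Hcfc1 flanked by lox sites (Hcfc1 hepKO/Y). The protocol describes control males as Hcfc1 lox/Y without Cre, while their genotype label reads C57BL/6, and they are called WT here as in the titles. Mice of both genotypes were 10 to 14 weeks old and received 1 mg of tamoxifen intraperitoneally 3 times, 24 h apart, starting on day 0, so days 1 and 2 fell within the injections. Between the male groups only KO livers carried Cre, so effects of the Cre transgene and of Hcfc1 loss cannot be told apart in this comparison. Livers were collected in the morning, and poly(A) RNA of whole liver was sequenced from 1 mouse a library.

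HCF-1, the product of Hcfc1, is a chromatin-bound co-regulator that joins sequence-specific transcription factors, among them YY1, ZNF143 and THAP11, to histone-modifying enzymes, and it is known from cell cycle and mitochondrial gene promoters. Hepatocytes make albumin and most other plasma proteins and are a main site of cholesterol synthesis, whose genes are switched on together by the transcription factor SREBP-2 when sterols run low. Interferon-stimulated genes are transcribed after interferons bind their receptors, and they code for antiviral proteins and for feedback inhibitors of the same pathway.

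Values are deposited log2 RPKM, a density of reads per length of exon and per library size. Levels are given in RPKM on the deposited scale, in the order replicate 1, replicate 2. Differences are KO minus WT within a day, averaged over the 2 days, on a log2 scale centred on the median of each library, with their standard error after the ± sign. That error uses a spread estimated over all 51 male libraries of the series. A gene was said to rise or fall in KO livers where limma's test over 12221 genes gave a Benjamini-Hochberg adjusted p under 0.05. These words compare KO with WT livers and do not describe a change from day 0. In whole liver, fewer cells of a type and less RNA per cell cannot be told apart.

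The depth estimated from the size of 1 read was 22.9M to 49.4M reads in KO libraries and 27.2M to 49.3M in WT libraries, so 1 read over 2000 bp of exon stood for 0.0095 to 0.0234 RPKM. KO day 1 replicate 2 had the fewest reads, and the summed RPKM of 8 neutrophil markers was 38.3 in it, against 4.91 to 8.24 in the other 3 KO libraries and 4.94 to 7.07 in the 4 WT libraries. The authors' sample sheet marks day 1 replicate 1 of both genotypes B_1 and all other libraries of these days B_2, with no key. Before centring, the median gene was higher in KO livers by 0.189 over days 1 to 2, by 0.333 on day 1 and by 0.045 on day 2. Hepatocyte markers were high in every library, with a summed RPKM over 10 markers of 21493 to 32487 in KO livers and 32844 to 54956 in WT livers, and the gap in Alb alone was larger than the gap in the sum.

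Hcfc1 itself (mm9 chrX:71188131-71211696, minus strand) had 8.39 and 5.97 RPKM in KO livers on day 1, against 4.96 and 3.43 RPKM in WT livers. On day 2 it had 10.0 and 10.4 RPKM in KO livers, against 6.80 and 6.76 RPKM in WT livers. On each day both KO libraries stood above both WT libraries, although KO day 1 replicate 2 lay below both WT libraries of day 2. The difference was 0.50 ± 0.14 (limma adjusted p = 0.0193), and the call was lost in 5 of 8 fits that left out 1 library (WT day 1 replicate 2, KO day 1 replicate 1, WT day 2 replicate 1 or either KO library of day 2). The table gives 1 value for the whole gene rather than for the deleted exons, so these values neither measure the deletion nor check the genotype labels.

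Over days 1 to 2, 1932 of the 12221 tested genes changed in KO livers (15.8%), of which 1113 rose (9.11%) and 819 fell (6.7%). A change of at least 2-fold was reached by 207 of the rises and 126 of the falls, and at least 4-fold by 39 rises and 26 falls. The 4 KO livers did not overlap the 4 WT livers, on the centred scale, for 1456 genes (11.9%), above them for 6.02% and below them for 5.89% of tested genes, and 999 of these genes (8.17%) were also called. Without centring, 2029 genes rose and 224 fell, so that 90.1% of calls were rises, against 57.6% with centring; 1106 of the 1113 rises and 223 of the 819 falls were called the same way there. A call for a fall is therefore relative to the median gene of its library unless stated otherwise.

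**Figure D1:**
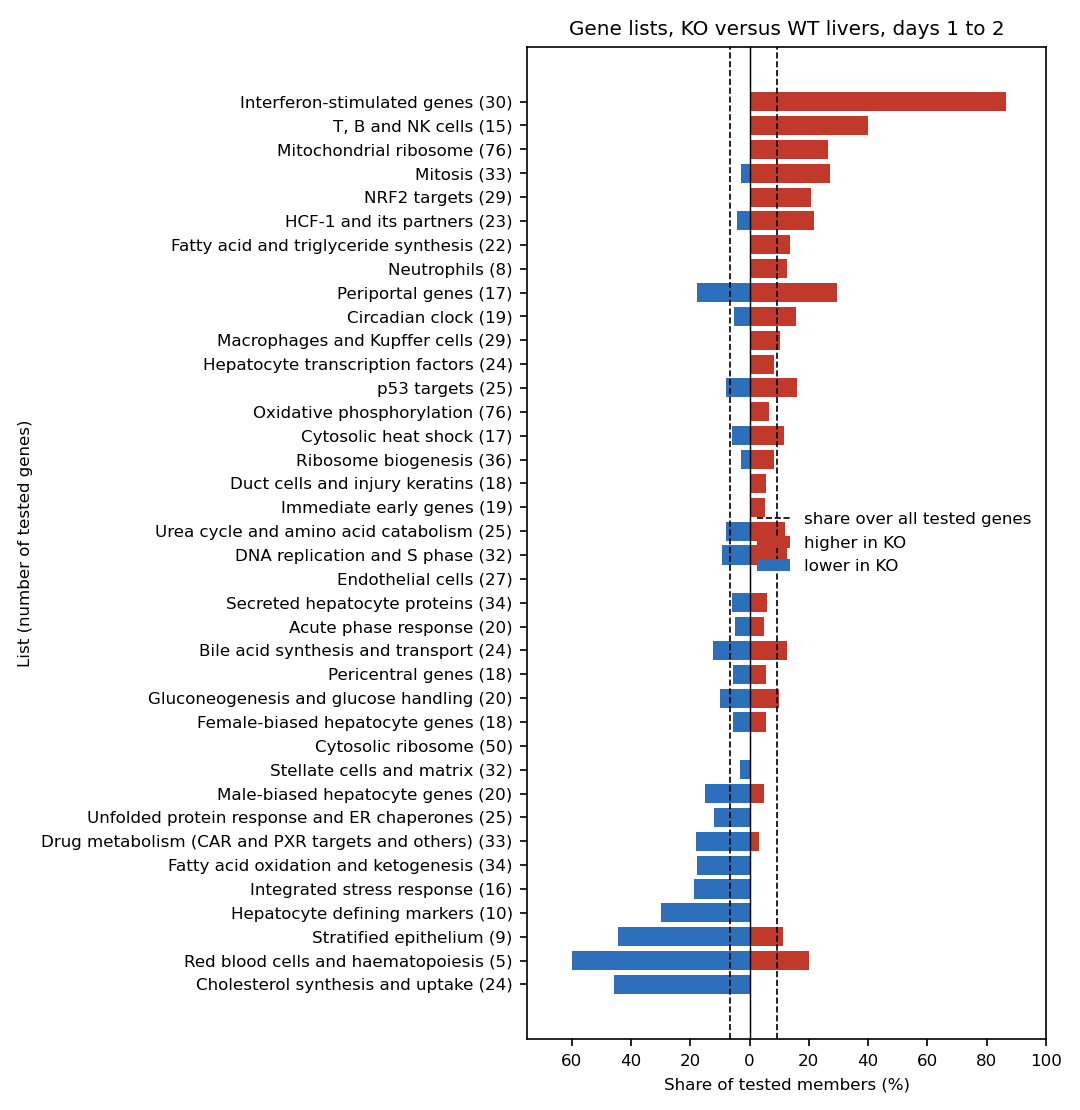
Share of the tested members of each gene list (percent, x axis) that were higher or lower in KO than in WT livers over days 1 to 2, with dashed lines at 9.11% and 6.7%, the shares of all tested genes. The interferon-stimulated genes stand farthest to the side of rises, with 26 of 30, and the cholesterol genes have 11 of 24 on the side of falls.

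Interferon-stimulated genes rose together. Of 30 tested members, 26 rose in KO livers over days 1 to 2 and 0 fell, against 9.11% and 6.7% of all tested genes, and the median difference of the 30 was 0.89, against 0.04 over all tested genes. The members that rose ran from the ubiquitin-like modifier Isg15 and its deconjugating enzyme Usp18, which also damps interferon receptor signalling, through the RNA-binding antiviral proteins Ifit1, Ifit2 and Ifit3 and the dynamin-like GTPases Mx1 and Mx2, to the transcription factors Stat2 and Irf7. The chemokine Cxcl10, the nucleic acid sensors Ifih1, Ddx58 and Zbp1 and the radical enzyme Rsad2 were also among them. The members that did not pass were Oas2 (0.74 ± 0.26, adjusted p = 0.0577), Oas3 (0.64 ± 0.32), Irf9 (0.15 ± 0.11) and Iigp1 (-0.15 ± 0.21).

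Promoters of this list shared a sequence feature, and those of Isg15, Ifit1 and Rsad2 are shown with that of Apol9a, a gene outside the list that was among the largest rises. The sequences are from RefSeq on GRCm38.p6, run from 250 bases before to 50 bases after the annotated start, 5′ to 3′ on the strand of the gene. Capitals mark each stretch of GAAA, any 2 bases and GAAA, or its reverse complement, TTTC, any 2 bases and TTTC. This motif is a core of the interferon-stimulated response element and was chosen after the values were seen. The Isg15 window, chr4:156200769-156201068 on the minus strand, holds 3 overlapping matches, the Ifit1 window, chr19:34640639-34640938 on the plus strand, holds 2, the Rsad2 window, chr12:26456403-26456702 on the minus strand, holds 1, and the Apol9a window, chr15:77411031-77411330 on the minus strand, holds 2 that overlap.
Isg15: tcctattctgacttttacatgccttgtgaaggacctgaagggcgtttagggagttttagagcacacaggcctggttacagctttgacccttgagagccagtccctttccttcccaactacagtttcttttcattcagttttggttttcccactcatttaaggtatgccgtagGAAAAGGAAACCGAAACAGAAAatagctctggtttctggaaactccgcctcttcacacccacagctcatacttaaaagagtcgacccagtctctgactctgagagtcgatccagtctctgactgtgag
Ifit1: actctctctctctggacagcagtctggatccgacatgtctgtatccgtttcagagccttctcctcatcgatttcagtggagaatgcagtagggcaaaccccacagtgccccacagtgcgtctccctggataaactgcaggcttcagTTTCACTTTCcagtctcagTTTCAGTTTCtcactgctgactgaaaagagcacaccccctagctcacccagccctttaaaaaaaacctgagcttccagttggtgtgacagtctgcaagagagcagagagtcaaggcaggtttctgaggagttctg
Rsad2: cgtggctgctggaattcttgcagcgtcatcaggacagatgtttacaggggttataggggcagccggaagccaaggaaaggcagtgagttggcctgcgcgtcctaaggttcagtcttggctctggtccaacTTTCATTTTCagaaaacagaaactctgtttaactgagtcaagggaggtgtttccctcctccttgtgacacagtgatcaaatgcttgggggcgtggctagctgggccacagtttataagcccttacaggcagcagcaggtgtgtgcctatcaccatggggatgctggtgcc
Apol9a: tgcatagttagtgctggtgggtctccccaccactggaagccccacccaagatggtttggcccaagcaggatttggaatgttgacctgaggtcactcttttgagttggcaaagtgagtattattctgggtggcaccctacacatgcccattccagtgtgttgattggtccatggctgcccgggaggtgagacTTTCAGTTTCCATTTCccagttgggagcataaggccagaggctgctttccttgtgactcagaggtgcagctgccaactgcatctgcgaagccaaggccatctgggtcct

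Counted on both strands, with overlapping matches allowed, the motif was found in 16 of the 22 list members with a window (72.7%), against 3.85% of the 9142 tested genes with a window and 3.99% of the 27025 promoters of the RefSeq table. It was present in 71 of 833 genes that rose (8.52%) and in 19 of 614 genes that fell (3.09%). Among the 10 of the 15 largest rises that had a window, Apol9a and Apol9b held it. A match describes the letters of the window and is not a measured binding site.

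Isg15 (mm9 chr4:155573533-155574927), whose promoter heads the set, had 20.1 and 29.2 RPKM in KO livers on day 1, against 3.99 and 3.55 RPKM in WT livers. A day later it had 13.5 and 13.2 RPKM in KO livers, against 9.18 and 5.98 RPKM in WT livers. All 4 KO livers lay above all 4 WT livers, and the gap was wider on day 1. The difference over both days was 1.58 ± 0.14 (limma adjusted p = 9.26e-08). Ifit1 had 6.86 and 9.80 RPKM in KO livers on day 1, against 1.00 and 1.19 RPKM in WT livers. Day 2 levels were 3.54 and 3.44 RPKM in KO livers, against 2.57 and 1.91 RPKM in WT livers. Again no KO liver fell within the WT range, and the difference was 1.59 ± 0.26 (limma adjusted p = 0.000192). Usp18 was also apart on both days, with 6.21 and 8.15 RPKM in KO livers on day 1, against 1.29 and 1.48 RPKM in WT livers. Its day 2 values were 8.08 and 7.28 RPKM in KO livers, against 5.70 and 3.83 RPKM in WT livers, and its difference over both days was 1.35 ± 0.14 (limma adjusted p = 4.84e-07).

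More members of the list passed on day 1 than on day 2. On day 1, 25 of the 30 members rose, against 3.65% of all tested genes, with a median difference of 1.59. On day 2, 3 members rose, against 5.13% of all tested genes, with a median difference of 0.29. Counts for single days depend on the spread shared with the other days. With the compared days alone, calls over all tested genes went from 648 to 52 on day 1 and from 1083 to 1630 on day 2. Summed over the 30 genes, the level on day 1 was 461 and 480 RPKM in KO livers, against 235 and 192 RPKM in WT livers. On day 2 it was 427 and 415 RPKM in KO livers, against 402 and 361 RPKM in WT livers. On the deposited scale the KO sums of both days were thus close to each other, and the WT sums of day 2 stood above those of day 1. On the centred scale, given below, the median change from day 0 in KO livers was nonetheless lower on day 2 than on day 1. On day 0 the sums were 359 and 321 RPKM in KO livers, against 273 and 212 RPKM in WT livers, with a median difference of 0.46 and Usp18 at 1.02 ± 0.19 (limma adjusted p = 0.0235). Relative to day 0 of the same genotype, the median member moved on day 1 by 0.51 in KO livers and by -0.47 in WT livers, and on day 2 by -0.12 in KO livers and by 0.22 in WT livers. The day 1 gap between the genotypes thus combined higher values in KO livers with lower values in WT livers than on day 0. Of the 30 members, 6 passed the direct test between the 2 days, all with a smaller difference on day 2, against 0.0573% of all tested genes. Calls of that test over all tested genes were 11, and became 1 after quantile normalization and 4 with the compared days alone. On days 3 to 5, 25 members rose, against 26.5% of all tested genes, with a median of 0.70.

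Marker genes of immune cells were measured beside this list. The summed level of 29 macrophage and Kupffer cell markers on day 1 came to 363 and 267 RPKM in KO livers, against 148 and 147 RPKM in WT livers, and on day 2 to 379 and 312 RPKM in KO livers, against 320 and 321 RPKM in WT livers. Of these 29 markers, 3 rose over days 1 to 2 (Ly6c2, Mpeg1 and Ly6c1), a share near the 9.11% of all tested genes, and the median difference of the 29 was 0.44. The 3 became 0 without WT day 2 replicate 1 and 1 without WT day 1 replicate 2, KO day 1 replicate 2, WT day 2 replicate 2 or either KO library of day 2. The part of these cells in the result was not tested. The count of interferon-stimulated rises was 18 to 22 in the fits that left out 1 library, 20 after quantile normalization, 18 with 1 RPKM added before the logarithm and 23 in B_2 libraries alone.

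**Figure D2:**
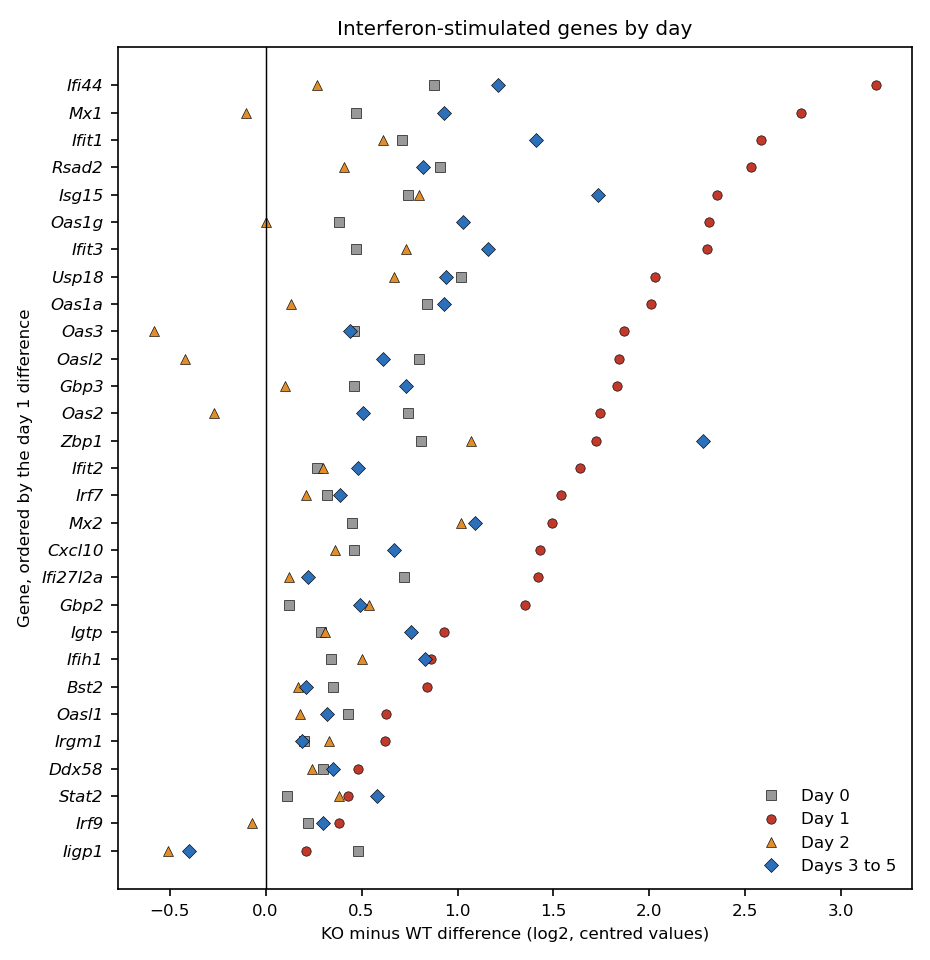
KO minus WT difference (log2, x axis) of each of 29 interferon-stimulated genes on day 0, day 1, day 2 and days 3 to 5, 1 row a gene. The day 1 points lie to the right of the day 2 points for all 29 genes, and the medians of the whole list were 1.59 on day 1 and 0.29 on day 2.

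Apol9a and Apol9b, closely alike genes of the apolipoprotein L family on chromosome 15 that are known interferon-inducible genes in mouse, rose on both days. Apol9a (mm9 chr15:77234220-77241483) had 72.9 and 81.2 RPKM in KO livers on day 1, against 12.9 and 13.6 RPKM in WT livers. For day 2 the values were 111 and 111 RPKM in KO livers, against 28.5 and 23.6 RPKM in WT livers. Every KO liver was above every WT liver on both days. The difference was 2.13 ± 0.14 (limma adjusted p = 3.19e-10), and that of Apol9b was 1.93 ± 0.13, although reads may be split between such similar copies. Ube2l6, the enzyme that conjugates Isg15, rose by 1.26 ± 0.10. The smallest p of the whole comparison belonged to Trmt10a, a tRNA methyltransferase gene named after its values were seen. It had 2.05 and 2.53 RPKM in KO livers on day 1, against 0.800 and 0.803 RPKM in WT livers, and 3.51 and 4.66 RPKM in KO livers on day 2, against 0.999 and 0.946 RPKM in WT livers. Its groups were far apart on both days, with a difference of 1.59 ± 0.10 (limma adjusted p = 2.56e-10).

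Alb, the albumin gene and one of the most abundant transcripts of the liver, was among the largest falls. Alb (mm9 chr5:90889915-90905629) had 990 and 1315 RPKM in KO livers on day 1, against 17413 and 14379 RPKM in WT livers. On day 2 it had 2130 and 2291 RPKM in KO livers, against 24276 and 30605 RPKM in WT livers. The groups were far apart on both days, and the difference was -3.90 ± 0.46 (limma adjusted p = 3.38e-06). On day 0 Alb had 16937 and 15824 RPKM in KO livers, against 33697 and 24306 RPKM in WT livers, and that difference did not pass the test (adjusted p = 0.944). The single Het female of day 1, which carries the same Cre with 1 intact Hcfc1 allele, had 18777 RPKM of Alb. Other falls, named below, varied in this liver, which differs from the males in sex too. It had 0.187 RPKM of Adh7 and 12.1 RPKM of Hopx, nearer to the KO livers of day 1. Dsg1c, at 0.949 RPKM, was below both WT livers of day 1. Krt4, at 0.955 RPKM, and Slc34a2, at 53.5 RPKM, were not below them.

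The other plasma protein genes were near the background. In the albumin family of 4 genes, Alb alone fell, against 6.7% of all tested genes. Of 34 genes for other secreted hepatocyte proteins, 2 rose (Kng1, a kininogen, and Apoc1) and 2 fell, among them the clotting factor gene F9, against 9.11% and 6.7% of all tested genes, with a median difference of 0.07. Over the fits without 1 library those counts were 0 to 2 and 1 to 2. Their summed level was 83296 to 102177 RPKM in KO livers and 74667 to 81074 RPKM in WT livers. Of the 10 hepatocyte markers, Alb, Cyp2e1 and Pck1 fell, but in the fits without 1 library Cyp2e1 kept its call in 0 of 8 and Pck1 in 1 of 8, while Alb kept it in all 8. Of 24 hepatocyte transcription factors, Foxa3 and Cebpa rose and 0 fell. Cebpa kept its call in 0 of 8 such fits. Foxa3 kept it in 6, losing it without replicate 1 of day 1 of either genotype, and it differed by 0.75 ± 0.19 over days 1 to 2 and by 1.28 ± 0.27 on day 0.

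Genes known from stratified epithelia were among the largest falls, at low to moderate levels. Of 9 tested genes of that list, 4 fell (Krt4, Dsg1c, Adh7 and Hopx) and 1 rose (Ly6d), against 6.7% and 9.11% of all tested genes, and both counts were the same in all 8 fits without 1 library. Krt4, a keratin of stratified epithelium, had 0.0403 and 0.0437 RPKM in KO livers on day 1, against 0.953 and 0.275 RPKM in WT livers, and 0.357 and 0.261 RPKM in KO livers on day 2, against 11.6 and 7.66 RPKM in WT livers. KO day 2 replicate 1 lay within the WT day 1 range on this scale, and the WT level was far higher on day 2 than on day 1. Its difference was -4.47 ± 0.52. Adh7, a retinol-oxidizing alcohol dehydrogenase, had 0.139 and 0.135 RPKM in KO livers on day 1, against 1.3 and 1.05 RPKM in WT livers, and 0.111 and 0.124 RPKM in KO livers on day 2, against 2.08 and 1.48 RPKM in WT livers. Its groups did not overlap, with a difference of -3.69 ± 0.33 (limma adjusted p = 8.43e-08). Dsg1c, a desmosomal cadherin, fell by 4.33 ± 0.38 on the log2 scale.

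The members that fell did not share 1 course from day 0. Adh7 differed from day 0 of the same genotype by -2.65 in KO livers and by 1.12 in WT livers, Dsg1c by -1.73 in KO livers and by 2.32 in WT livers, and Hopx by -1.98 in KO livers and by 0.95 in WT livers, so these 3 were below day 0 in KO livers and above it in WT livers. Krt4 was above day 0 in both, by 1.72 in KO livers and by 6.68 in WT livers. It had 0.0204 and 0.0378 RPKM in KO livers on day 0, against 0.0102 and 0.0333 RPKM in WT livers. Those values and its KO values of day 1 were near the size of a few reads, so the log2 differences of Krt4 are imprecise. Over the 9 tested genes, the median change from day 0 of the same genotype was -0.01 in KO livers and 1.08 in WT livers on day 1, and 0.12 in KO livers and 1.65 in WT livers on day 2. Slc34a2, a sodium-phosphate cotransporter, outside the list, was like Krt4 in this. It had 0.635 and 0.569 RPKM in KO livers on day 0, against 0.596 and 0.796 RPKM in WT livers. On day 1 it had 7.03 and 4.31 RPKM in KO livers, against 19.7 and 19.6 RPKM in WT livers, and on day 2 it had 9.88 and 8.48 RPKM in KO livers, against 138 and 138 RPKM in WT livers. Its level was thus above day 0 in both genotypes, and less so in KO livers, with a difference of -3.07 ± 0.36. Hopx, a homeodomain-only protein without DNA binding of its own, had 15 and 14.1 RPKM in KO livers on day 0, against 17.9 and 16.5 RPKM in WT livers. On day 1 it had 9.66 and 10.3 RPKM in KO livers, against 38 and 30.3 RPKM in WT livers. A day later it had 2.21 and 1.91 RPKM in KO livers, against 48.3 and 38.8 RPKM in WT livers. Hopx groups did not overlap on either day, and the difference was -3.27 ± 0.34.

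**Figure D3:**
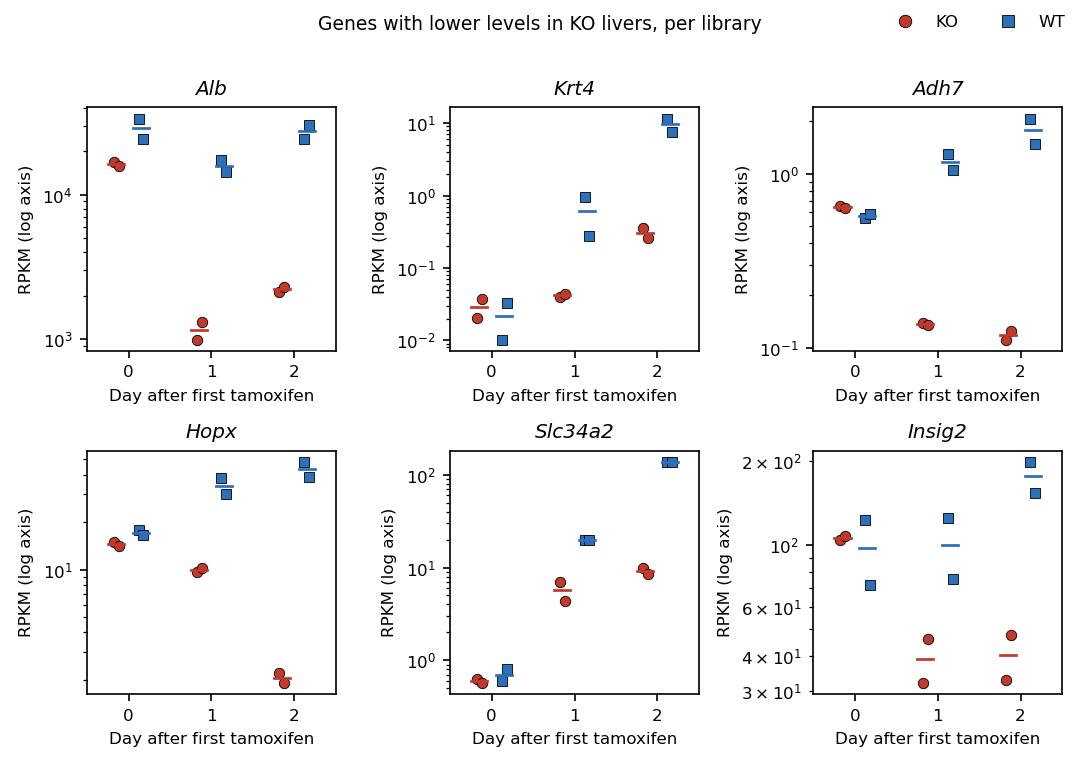
Level (RPKM, log axis) of Alb, Krt4, Adh7, Hopx, Slc34a2 and Insig2 in each KO and WT liver on days 0, 1 and 2, with a bar at the mean of 2 livers. KO and WT livers lie close together on day 0 for Krt4 and Slc34a2 and apart on day 2, where Slc34a2 reached 138 RPKM in WT livers.

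The other 8 of the 15 largest falls that were kept in every fit without 1 library were Ptgds, Tmem200b, Asb2, Mypop, Insig2, Fam47e, Tsen54 and Sept5. Ptgds, a prostaglandin D synthase, had 2.01 and 5.23 RPKM in KO livers on day 1, against 17.4 and 3.96 RPKM in WT livers, and 2.61 and 1.77 RPKM in KO livers on day 2, against 71.3 and 32.8 RPKM in WT livers. Its day 1 libraries crossed on the RPKM scale. Its difference was -3.11 ± 0.60. Tsen54, a subunit of the tRNA splicing endonuclease, had 2.06 and 2.38 RPKM in KO livers on day 1, against 5.34 and 4.36 RPKM in WT livers, and 2.16 and 2.43 RPKM in KO livers on day 2, against 12.9 and 10.0 RPKM in WT livers. Its KO values were alike on both days while WT values were higher on day 2, with a difference of -1.91 ± 0.30. Fgf21, a fasting hormone of the liver, was also among the 15 (-2.12 ± 0.71, limma adjusted p = 0.0424), but its call was lost in every fit without 1 library.

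Many cholesterol synthesis genes were lower in KO livers. Of 24 tested genes of cholesterol synthesis and uptake, 11 fell and 0 rose, against 6.7% and 9.11% of all tested genes, and the median difference was -0.58. Among them were Idi1, Sqle, Nsdhl, Cyp51, Hsd17b7, Stard4, Mvd, Fdft1, Msmo1 and Mvk. They reach from the mevalonate steps to the late sterol steps, with Stard4 as a sterol carrier. Idi1, the isopentenyl diphosphate isomerase (mm9 chr13:8884852-8891641), had 59 and 42.2 RPKM in KO livers on day 1, against 93.6 and 70.9 RPKM in WT livers. Day 2 levels were 73.5 and 64.6 RPKM in KO livers, against 197 and 151 RPKM in WT livers. Within each day the KO livers were below the WT livers, and the gap in RPKM was wider on day 2. The difference was -1.21 ± 0.21 (limma adjusted p = 0.000381). Sqle, the squalene epoxidase, had 36.3 and 29.8 RPKM in KO livers on day 1, against 55.7 and 46.5 RPKM in WT livers. For day 2 the values were 47.2 and 37.4 RPKM in KO livers, against 82.8 and 71.0 RPKM in WT livers. Only 1 KO liver of day 2 reached the lower WT liver of day 1, and the difference was -0.94 ± 0.17.

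On day 1 the median cholesterol gene lay below day 0 in KO livers and above it in WT livers. On day 2 it lay above day 0 in both, by less in KO livers. The median member changed from day 0 of the same genotype by -0.21 in KO livers and by 0.42 in WT livers on day 1, and by 0.32 in KO livers and by 0.85 in WT livers on day 2. Regulators of the pathway were measured as well: Srebf2, the gene of SREBP-2, differed by -0.28 ± 0.16 and Insig1 by -0.31 ± 0.25, and neither passed. Insig2, which retains SREBP precursors in the endoplasmic reticulum, was the member of that family that fell. Insig2 had 32.1 and 46.1 RPKM in KO livers on day 1, against 125 and 76.0 RPKM in WT livers. On day 2 it had 33 and 47.6 RPKM in KO livers, against 199 and 154 RPKM in WT livers. All KO livers were below all WT livers, and the difference was -1.93 ± 0.25. On days 3 to 5 the median of the cholesterol list was 0.01, with 2 members higher and 4 lower, against 26.5% and 24.5% of all tested genes on those days. The day 1 to 2 count rests on few libraries: leaving out KO day 1 replicate 2 gave 3, KO day 2 replicate 2 gave 4, WT day 1 replicate 2 gave 6, either WT library of day 2 gave 7, and KO day 1 replicate 1 gave 14. Idi1, Sqle and Nsdhl were kept in all 8 of those fits, and 18 of 24 fell in B_2 libraries alone.

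**Figure D4:**
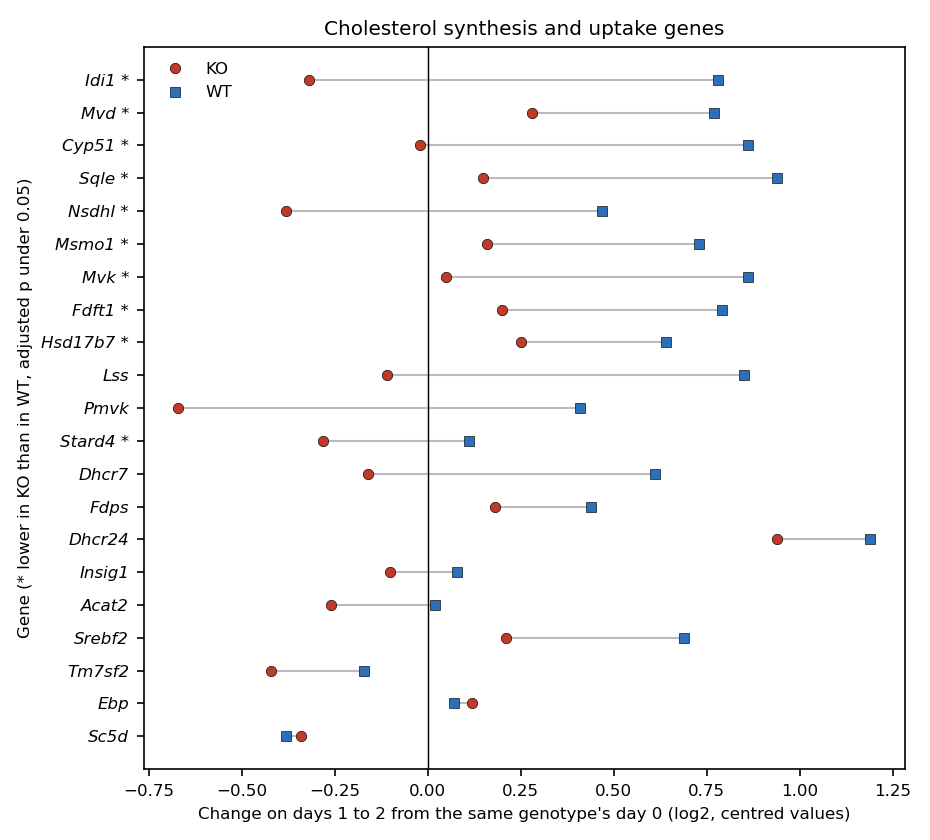
Change in log2 level on days 1 to 2 from day 0 of the same genotype (x axis) for 21 of the 24 cholesterol genes, KO as circles and WT as squares, with an asterisk for the 10 of them that were lower in KO livers. For the 10 marked genes the circles lie to the left of the squares.

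Largest rises were found among genes of low or moderate level and of many roles. G6pdx, glucose-6-phosphate dehydrogenase, the entry enzyme of the pentose phosphate pathway and like Hcfc1 on the X chromosome (mm9 chrX:71654822-71674533), had 3.60 and 2.76 RPKM in KO livers on day 1, against 0.658 and 0.582 RPKM in WT livers. A day later it had 21.4 and 14.8 RPKM in KO livers, against 1.83 and 1.59 RPKM in WT livers. Its KO level was well above WT on both days, with a difference of 2.68 ± 0.36 (limma adjusted p = 2.37e-05). On day 0 G6pdx had 2.40 and 3.82 RPKM in KO livers, against 1.65 and 0.577 RPKM in WT livers. That day 0 difference was 1.54 ± 0.52 (limma adjusted p = 0.388). The change from day 0 was 1.14 ± 0.63 (limma adjusted p = 0.505) and did not pass. Ly6d, a GPI-anchored surface protein, had 23.5 and 21.9 RPKM in KO livers on day 1, against 2.86 and 2.34 RPKM in WT livers. Day 2 levels were 17.5 and 20.5 RPKM in KO livers, against 5.11 and 2.54 RPKM in WT livers. KO levels were alike on both days and above every WT liver, with a difference of 2.58 ± 0.37. The single Het female of day 1 had 26.9 RPKM of Ly6d.

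Gldn, the gene of gliomedin, a matrix protein known from peripheral nerve, had 1.49 and 1.12 RPKM in KO livers on day 1, against 0.0328 and 0.0127 RPKM in WT livers. For day 2 the values were 1.64 and 1.84 RPKM in KO livers, against 0.406 and 0.215 RPKM in WT livers. The WT values of day 1 were near the size of 1 read, and the difference was 4.07 ± 0.72. Fam81a, whose role is not established, had 1.72 and 2.49 RPKM in KO livers on day 1, against 0.258 and 0.348 RPKM in WT livers, and 5.92 and 5.25 RPKM in KO livers on day 2, against 1.04 and 0.791 RPKM in WT livers. Its groups did not overlap, with a difference of 2.51 ± 0.23 (limma adjusted p = 1.1e-07). Cd4, the co-receptor of helper T cells, had 0.429 and 0.591 RPKM in KO livers on day 1, against 0.111 and 0.124 RPKM in WT livers, and 2.24 and 2.47 RPKM in KO livers on day 2, against 0.374 and 0.375 RPKM in WT livers. Its difference was 2.19 ± 0.24, whereas the T cell receptor gene Cd3e differed by 1.14 ± 0.47 (limma adjusted p = 0.102) and the T cell kinase gene Lck by -0.02. From day 0 of the same genotype, Cd4 moved over days 1 to 2 by -0.07 in KO livers and by -1.88 in WT livers. Of 15 tested T, B and NK cell markers 6 rose, against 9.11% of all tested genes, a count that was 1 without KO day 1 replicate 2 or KO day 2 replicate 2 and 3 without WT day 1 replicate 2 or WT day 2 replicate 1, and their part in the Cd4 result was not tested.

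The other rises of this size were Apol9b, Stap1, Mfsd7c, Itih5, Robo1 and Blnk, each kept in all 8 fits without 1 library, and Dnaic1, Tff3 and Hsd17b6, which were not. Robo1, the receptor of the guidance factor Slit, had 1.60 and 2.77 RPKM in KO livers on day 1, against 0.290 and 0.480 RPKM in WT livers. On day 2 it had 3.54 and 3.72 RPKM in KO livers, against 1.09 and 1.55 RPKM in WT livers. Its KO livers were above all WT livers, with a difference of 1.80 ± 0.24. Tff3, a secreted trefoil peptide, had 27 and 160 RPKM in KO livers on day 1, against 6.91 and 7.16 RPKM in WT livers, and 31.1 and 39.1 RPKM in KO livers on day 2, against 14.5 and 10.2 RPKM in WT livers. The highest Tff3 value stood in KO day 1 replicate 2, and its difference of 2.18 ± 0.69 kept its call in 1 of 8 fits. Hsd17b6 had an adjusted p of 0.0678 by limma without WT day 1 replicate 2. Its level over days 1 to 2 differed from day 0 of the same genotype by -1.82 in KO livers and by -2.85 in WT livers.

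**Figure D5:**
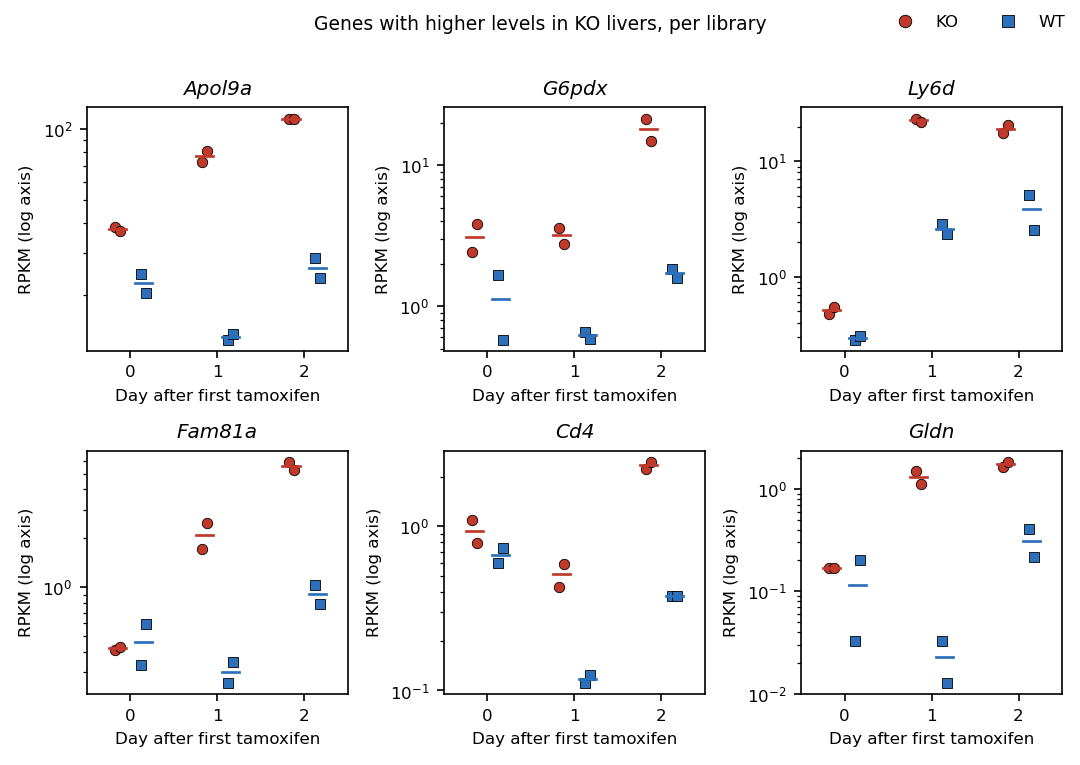
Level (RPKM, log axis) of Apol9a, G6pdx, Ly6d, Fam81a, Cd4 and Gldn in each KO and WT liver on days 0, 1 and 2, with a bar at the mean of 2 livers. On days 1 and 2 both KO livers lie above both WT livers of the same day in all 6 panels.

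Part of the genes of the mitochondrial ribosome, which translates the few proteins encoded in mitochondrial DNA, rose by small amounts. Of 76 tested genes 20 rose and 0 fell, against 9.11% and 6.7% of all tested genes, with a median difference of 0.15. On day 1, 6 rose, and on day 2, 17 rose, against 3.65% and 5.13% of all tested genes on those days. Mrpl38 had 30.5 and 32 RPKM in KO livers on day 1, against 19 and 16.6 RPKM in WT livers. A day later it had 50.4 and 53.3 RPKM in KO livers, against 32.5 and 29.9 RPKM in WT livers. Within each day KO livers were above WT livers by a similar ratio, and the difference was 0.58 ± 0.07 (limma adjusted p = 2.01e-06). Mrpl47 differed by 0.92 ± 0.11, Mrpl45 by 0.60 ± 0.08 and Mrpl19 by 0.58 ± 0.07, and these 4 kept their calls in all 8 fits without 1 library. The count of 20 was 40 without centring. Leaving out KO day 2 replicate 2 gave 11, WT day 1 replicate 1 or KO day 1 replicate 2 gave 12, and WT day 2 replicate 2 gave 13. Of 76 tested oxidative phosphorylation genes 5 rose and 0 fell. That 5 was 23 without centring, 0 without WT day 1 replicate 1, WT day 2 replicate 1 or either KO replicate 2, 2 without KO day 2 replicate 1, and 3 without WT day 2 replicate 2 or KO day 1 replicate 1. Of 50 tested cytosolic ribosome genes, 0 changed with centring and 10 rose without it. These counts without centring stand against 2029 rises among all 12221 tested genes without centring.

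Lipid, drug and stress genes changed in small numbers. Of 34 genes of fatty acid oxidation and ketogenesis 6 fell and 0 rose, against 6.7% and 9.11% of all tested genes, led by the PPARα target Cyp4a10 (-2.02 ± 0.36, limma adjusted p = 0.000506), the pantetheinase gene Vnn1 (-1.22 ± 0.26) and Etfdh (-0.47 ± 0.09), the dehydrogenase that hands electrons of β-oxidation to ubiquinone. Cyp4a10 had 6.80 and 26.6 RPKM in KO livers on day 1, against 79.8 and 44.9 RPKM in WT livers, and 48.4 and 88.6 RPKM in KO livers on day 2, against 179 and 193 RPKM in WT livers. Its KO livers were below the WT livers of their own day, though the 2 KO livers of day 1 differed widely. On day 0 Cyp4a10 had 16.1 and 20.9 RPKM in KO livers, against 36.5 and 30.6 RPKM in WT livers (-0.96 ± 0.52). The change from day 0 was -1.06 ± 0.63 (limma adjusted p = 0.553) and did not pass. The 6 falls of the list became 3 without replicate 1 of KO day 1 or KO day 2. Of 22 genes of fatty acid and triglyceride synthesis 3 rose (Scd1, Srebf1 and Scd2), a share near that of all tested genes, and the count was 0 without WT or KO day 2 replicate 1 and 1 without WT day 1 replicate 2 or KO day 1 replicate 1. Srebf1 kept its call in 3 of 8 such fits and Scd2 in 0 of 8. Scd1, the stearoyl-CoA desaturase, had 561 and 614 RPKM in KO livers on day 1, against 283 and 191 RPKM in WT livers, and 3125 and 1714 RPKM in KO livers on day 2, against 388 and 522 RPKM in WT livers. Both KO livers were above WT on each day, and the difference of 1.66 ± 0.44 kept its call in 6 of 8 fits, losing it without KO or WT day 2 replicate 1. On day 0 Scd1 had 1743 and 1845 RPKM in KO livers, against 2491 and 850 RPKM in WT livers. Its change over days 1 to 2 from day 0 of the same genotype was -0.92 in KO livers and -2.38 in WT livers. Of 33 drug metabolism genes 6 fell and 1 rose, with Aldh1a1, a retinal dehydrogenase, at -1.22 ± 0.19, and those falls were 3 without WT day 1 replicate 2 or replicate 2 of either genotype on day 2.

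Of 29 targets of the oxidative stress factor NRF2, 6 rose and 0 fell, against 9.11% and 6.7% of all tested genes. The 6 became 5 without WT day 1 replicate 2, 3 without replicate 1 of KO day 1 or KO day 2, and 2 without any other 1 of the 8 libraries, and Ugdh lost its call in all 8 of those fits. Nqo1, a quinone reductase, rose by 1.14 ± 0.22 and G6pdx was the largest. Of 25 p53 targets 4 rose and 2 fell, and the rises were 2 without WT day 1 replicate 1, WT day 2 replicate 1 or either KO library of day 2. The cell cycle inhibitor Cdkn1a had 8.46 and 5.37 RPKM in KO livers on day 1, against 15.6 and 15 RPKM in WT livers, and 3.71 and 5.76 RPKM in KO livers on day 2, against 14.7 and 9.70 RPKM in WT livers. All KO livers were below all WT livers in RPKM, although the groups overlapped after median centring, with a difference of -1.46 ± 0.25. The receptor gene Eda2r had 0.126 and 0.178 RPKM in KO livers on day 1, against 0.0361 and 0.00621 RPKM in WT livers. Its day 2 values were 0.443 and 0.517 RPKM in KO livers, against 0.0730 and 0.118 RPKM in WT livers, and it rose by 2.65 ± 0.44. Of 16 genes of the integrated stress response 3 fell and 0 rose, with Chac1, a glutathione-degrading enzyme, at -1.65 ± 0.36 and the cytokine gene Gdf15 at -1.54 ± 0.35. Gaps of similar size were measured on day 0, at -1.50 ± 0.51 for Chac1 and -1.40 ± 0.49 for Gdf15, and the change from day 0 was -0.15 ± 0.63 for Chac1 and -0.15 ± 0.60 for Gdf15. Of 25 genes of the unfolded protein response 3 fell and 0 rose, a count of falls that was 1 without replicate 1 of any of the 4 groups and 7 with a replicate block. Their median difference was -0.25 over days 1 to 2 and -0.63 on day 0, so the median gap was larger on day 0.

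Cell cycle genes were near the lower end of measurement. Of 33 tested mitosis genes 9 rose and 1 fell, against 9.11% and 6.7% of all tested genes, with a median of 0.85. Leaving out KO day 1 replicate 1 gave 5 rises, KO day 2 replicate 2 gave 4 and WT day 2 replicate 1 gave 3, and all 8 such fits gave 3 to 12. Their summed level was 6.69 to 17.5 RPKM in KO livers and 3.69 to 13.5 RPKM in WT livers, and 0 rose when 0.1 or 1 RPKM was added before the logarithm. Plk1, a mitotic kinase, had 0.0612 and 0.0638 RPKM in KO livers on day 1, against 0.00866 and 0.0134 RPKM in WT livers, and 0.348 and 0.333 RPKM in KO livers on day 2, against 0.0700 and 0.127 RPKM in WT livers. Of 32 genes of DNA replication and S phase 4 rose and 3 fell, with 1 fall without KO day 1 replicate 1 or WT day 2 replicate 1. Among the 23 genes of HCF-1 complexes, Yy1, Zfp143, Rbbp5, Hcfc1 and Sin3a rose, a total of 5, and Hdac1 fell, against 9.11% and 6.7% of all tested genes. The 5 became 2 without KO day 2 replicate 2 or with the compared days alone, and 3 without WT day 1 replicate 2, WT day 2 replicate 1 or KO day 2 replicate 1. Yy1 had 15.6 and 17.4 RPKM in KO livers on day 1, against 12.4 and 9.41 RPKM in WT livers, and 19.1 and 21.4 RPKM in KO livers on day 2, against 12.0 and 14.4 RPKM in WT livers. No KO liver fell within the WT range for Yy1, and its difference was 0.42 ± 0.07, while that of Zfp143 was 0.52 ± 0.09.

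Marker lists of other cells differed in how many members changed, against 9.11% of all tested genes that rose and 6.7% that fell. Of 27 endothelial markers 0 changed, of 32 stellate cell and matrix genes Fn1 alone fell, of 18 duct and injury keratin genes Sox9 alone rose, and of 8 neutrophil markers Mmp9 alone rose. Of 5 red blood cell genes 3 fell (Car1, Car2 and Alas2) and 1 rose (Klf1), and the falls were 1 without replicate 2 of either genotype on day 2. Of 18 pericentral genes 1 rose and 1 fell, and of 17 periportal genes 5 rose and 3 fell. The periportal rises were 1 without KO day 1 replicate 2, 6 without KO day 1 replicate 1 and 3 without any other 1 of the 8 libraries, and the falls were 1 without KO day 1 replicate 1. Of 19 clock genes 3 rose and 1 fell, with 1 rise without WT day 1 replicate 1 or replicate 1 of either genotype on day 2, and of 20 acute phase genes 1 rose and 1 fell. The median acute phase gene stood above day 0 of its own genotype by 2.85 in KO livers and by 2.51 in WT livers on day 1.

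For single days, 648 genes changed on day 1 (5.3%), with 446 rises (3.65%) and 202 falls (1.65%), and 1083 changed on day 2 (8.86%), with 627 rises (5.13%) and 456 falls (3.73%). Among the calls over both days, 115 rises and 85 falls were also called on each day alone. The difference between the 2 days was tested directly, and 11 genes passed (0.09%; 1220 had an unadjusted p under 0.05). For 4 of them (0.0327%) the KO minus WT difference was larger on day 2, and for 7 (0.0573%) it was smaller. The 7 included the interferon-stimulated genes Ifi44, Oas1g, Oasl2, Gbp3, Isg15 and Usp18. Ifi44 had 2.47 and 3.25 RPKM in KO livers on day 1, against 0.242 and 0.253 RPKM in WT livers, and 0.814 and 0.636 RPKM in KO livers on day 2, against 0.714 and 0.466 RPKM in WT livers. It was well separated on day 1 and overlapped on day 2, and the change in the difference was -2.91 ± 0.49 (limma adjusted p = 0.0178). Sox9, a transcription factor of bile ducts, changed the other way, by 2.64 ± 0.33. It had 1.76 and 3.19 RPKM in KO livers on day 1, against 2.91 and 3.09 RPKM in WT livers, and 3.10 and 3.33 RPKM in KO livers on day 2, against 0.725 and 0.868 RPKM in WT livers. The KO values of both days overlapped, and the WT values of day 2 were the lowest.

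The livers already differed on day 0 in 11 genes (0.09%), with 6 higher (0.0491%) and 5 lower (0.0409%) in KO livers (850 had an unadjusted p under 0.05). Tested against that start, the KO minus WT difference of days 1 to 2 had changed for 73 genes (0.597%), 38 upward (0.311%) and 35 downward (0.286%), and 1443 had an unadjusted p under 0.05. Day 0 values enter this contrast with their own error, from 2 livers of each genotype. Spon2, a secreted matrix protein named after its values were seen, changed by -2.22 ± 0.25 (limma adjusted p = 3.74e-05), Trmt10a by 1.3 ± 0.17, Apol9a by 1.47 ± 0.24, Fam81a by 2.69 ± 0.40, Krt4 by -4.96 ± 0.91, Insig2 by -2.0 ± 0.43 and Hopx by -2.93 ± 0.58. For Alb the change was -3.00 ± 0.79 (limma adjusted p = 0.0846), and for Isg15 it was 0.84 ± 0.25 (adjusted p = 0.133), so neither passed. The 1113 rises had moved from day 0 of their own genotype by a median of 0.28 in KO livers and -0.16 in WT livers, and the 819 falls by -0.24 in KO livers and 0.12 in WT livers. The choice of genes used these libraries, so those 4 medians are a description.

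On days 3 to 5, in 12 other livers, 6225 genes differed between KO and WT (50.9%), with 3236 rises (26.5%) and 2989 falls (24.5%). Of the 1113 early rises, 897 rose there too (80.6%, or 27.7% of the later rises), and of the 819 early falls, 702 fell there too (85.7%, or 23.5% of the later falls). The opposite call was found for 26 early rises and 1 early fall. Both fits share the estimate of spread but no library. Trmt10a differed by 2.99 ± 0.08 on days 3 to 5, Stap1 by 4.10 ± 0.24 and Nqo1 by 2.02 ± 0.18, while the mitosis list had 31 of 33 members lower and 0 higher there.

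Other motifs were counted in the same promoter windows on both strands, chosen for factors known to work with HCF-1 or in the cell cycle. ACTACAA, a core bound by THAP11 and ZNF143, was found in 6.03% of genes that fell and 3.96% of genes that rose, against 4.97% of tested genes with a window. CCGGAAG, bound by ETS factors, was found in 14.7% of genes that fell and 19.4% of genes that rose, against 19.7%. GCGGGAAA was found in 1.47% of genes that fell and 1.80% of genes that rose, against 2.2%. CACGTG, an E-box, was found in 14.5% of genes that fell and 9.36% of genes that rose, against 11.8%, and in Asb2, Fgf21, Hopx and Tsen54 among the 12 largest falls with a window. These shares were not tested.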

How the data were processed

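Poly(A) RNA of whole liver was sequenced as 50-nucleotide single-end stranded reads, per the labels. The authors used TopHat2 2.0.13, Bowtie 1.1.2 and edgeR with the mm9 genome, per the submitters' processing notes, and deposited log2 RPKM values (a read density) for 15616 genes, per the file headers. Low values showed that a constant of 8.90e-05 RPKM had been added before the logarithm. With the constant taken off, 98.2% of low values, in 946 genes, were whole reads to within 0.1 read, which gave the depths; precision limits cover counting error only.

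Values were centred on each library's median over the tested genes (deposited log2 of at least 0 in at least 4 of the 51 male libraries, 12221 genes). In R 4.3.3, limma 3.58.1 (eBayes with trend) fitted 1 mean per genotype and day to the 26 KO and 25 WT male libraries, with 21 residual and 3.55 prior degrees of freedom. The test planned for raw counts was not needed. Tests were two-sided, with Benjamini-Hochberg adjustment within each comparison and a threshold of 0.05. Nothing beyond the labels says that libraries of a group were processed independently, so p-values measure the spread between libraries of the same genotype and day. That spread was estimated over all 51 male libraries and not from the compared days alone. The 12 Het female libraries entered no fit, and 1 unnumbered KO column of day 14 was used as replicate 2. Scripts were tested on simulated data.

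The members, gene lists and tests were chosen with earlier results of these data known. Named genes were Hcfc1; the 15 largest rises and falls with the same sign on both days, groups that did not overlap and at least 1 RPKM in the higher genotype; the 5 largest changes each way between days and from day 0; and up to 4 called members a list by p. Genes outside this rule (Trmt10a, Ube2l6, Spon2, Ifit1 and others named from the lists) were chosen after their values were seen. Alternatives were other scalings, filters, pseudocounts, spread models, B_2 libraries alone, the compared days alone, a replicate block and leaving out each library. Promoters came from RefSeq (GRCm38.p6), matched by symbol, and gene positions from an mm9 GENCODE annotation. A few list members are included in the counts and not reported by name here.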

Additional observations from a re-analysis of the deposited data

Results flagged for a closer look

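The difference between KO and WT livers was itself different on day 2 and on day 1, by limma's test of the interaction, for 11 genes. The named ones that differed upward on day 2 relative to day 1 were Sox9 (2.64 on the log2 scale), Cited2 (1.46), Ino80b (0.88) and Rnf181 (0.87). Those that differed downward were Ifi44 (-2.91), Oas1g (-2.31), Oasl2 (-2.27), Gbp3 (-1.73), Isg15 (-1.55) and Usp18 (-1.36), each of them an interferon-stimulated gene.

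The difference of days 1 to 2 was different from that of day 0, by the same kind of test, for 73 genes. Among the named genes the change was upward for Ntrk2 (6.52), Eda2r (3.81), Bhlha15 (3.64), Lrtm1 (2.89), Fam81a (2.69), Clic5 (2.63), Robo1 (2.26), Cd4 (1.81), Apol9a (1.47), Apol9b (1.24), Mrpl47 (1.00) and Utp20 (0.77). It was downward for Krt4 (-4.96), Dsg1c (-4.05), Adh7 (-3.77), Fabp5 (-3.15), Hopx (-2.93), Slc34a2 (-2.77), Tmem200b (-2.56), Cdkn1a (-2.53), Asb2 (-2.35) and Insig2 (-2.0). Some of these changes lay wholly or partly in day 0: Bhlha15 differed by -0.19 ± 0.48 over days 1 to 2 and by -3.83 ± 0.67 on day 0. Day 0 differences of the opposite sign to the change were also measured for Ntrk2 (-2.52 ± 0.93), Fabp5 (1.41 ± 0.52) and Cdkn1a (1.07 ± 0.36), though none of them passed. Ntrk2 was low on day 0, with 0.0343 and 0.0230 RPKM in KO livers, against 0.174 and 0.132 RPKM in WT livers. Lrtm1 had 0.450 and 0.292 RPKM in KO livers on day 0, against 2.04 and 1.16 RPKM in WT livers.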

How the results depend on the processing

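The number of genes called over days 1 to 2, 1932, became 1101 when WT day 2 replicate 1 was left out, 1178 for KO day 2 replicate 2 and 1271 for KO day 1 replicate 2, and was 1101 to 1752 over all 8 fits without 1 library. It was 1913 in B_2 libraries alone and 1435 after quantile normalization (731 rises and 704 falls). On day 1, 648 calls became 1328 without centring, 276 after quantile normalization, 398 with 0.1 RPKM added, 263 with 1 RPKM added, 52 with the compared days alone, and 226 to 565 without 1 library (lowest for KO replicate 2, then 272 and 291 for WT replicates 2 and 1). On day 2, 1083 calls became 447 without centring, 1630 with the compared days alone, 1855 in B_2 libraries alone, and 264 to 481 without 1 library (lowest for KO replicate 2). Between the days, 11 calls became 1 after quantile normalization, 23 with no filter, 7 and 1 with 0.1 and 1 RPKM added, 4 with the compared days alone, 199 in B_2 libraries alone, and 4 to 42 without 1 library (lowest for WT day 2 replicate 1, highest for WT day 1 replicate 1). Against day 0, 73 calls became 37 without centring, 249 in B_2 libraries alone, and 30 to 154 without 1 library (lowest for KO day 0 replicate 2, highest for KO day 1 replicate 1). The cause of these changes was not tested, except that fits without a library hold fewer samples. On days 3 to 5, 5672 to 6048 calls were made without 1 library, and no alternative moved the count by over 1.5 times. Among named genes, Bhlha15 changed sign over days 1 to 2 in B_2 libraries alone (0.09) and ranged between -0.74 and 0.36 over fits lacking 1 library (0.02 when KO day 1 replicate 1 was left out), and with 1 RPKM added Egr2 (-0.13), Ndc80 (-0.06) and Nusap1 (-0.06) did. Of the 145 named genes called over days 1 to 2, 81 kept their call in every fit without 1 library.

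Libraries that share a replicate number were not shown to be paired: the correlation of their deviations was 0.136, 0.102 and -0.00466 on days 0, 1 and 2, and -0.0554 to 0.286 over all days, highest on day 3 and then day 7 (0.182). A fit with a replicate block called 2034 genes over days 1 to 2, 706 on day 1, 1108 on day 2, 9 between the days, 69 against day 0 and 6456 on days 3 to 5. Depth limits genes under about the size of a few reads, such as Gldn, Krt4, Plk1 and Eda2r.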

Other observations

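The single Het female liver of day 1, which carried the same Cre with 1 lox-flanked and 1 intact Hcfc1 allele, entered no test, since it differs from the males in sex as well as genotype. Its level was above both WT males of day 1 for 30 of 30 interferon-stimulated genes, against 4643 of all 12221 tested genes, and nearer to the KO mean than to the WT mean for 25 of them (83.3%, against 53.9% of all tested genes). It had 19.5 RPKM of Isg15 and 2.07 RPKM of Ifi44. The single Het female liver of day 0 had 12.6 RPKM of Isg15, against 5.70 and 3.56 RPKM in WT males of day 0. That day 0 liver had 2.41 RPKM of Ifi44, against 0.548 and 0.441 RPKM. For these genes the Het level was thus already above WT males on day 0, and the cause was not tested. For the cholesterol genes the Het liver of day 1 was nearer to the KO mean for 1 of 24 and above both WT males for 15. For the markers of T, B and NK cells it was nearer to the KO mean for 14 of 15.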
